A study of Mus musculus with 6 samples.

Results

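The genes of the circadian clock were examined in the renal cortex of 6 male mice aged 16 weeks, each hybridised to 1 one-colour Agilent array. The 10 genes were Arntl, Clock, Npas2, Per1, Per2, Per3, Cry1, Nr1d1, Dbp and Tef, chosen by name from the gene names of the array design, and 24 of the 56605 probes on the array carried one of these names. Of the 10 genes, 9 passed the filter on dim probes, with 19 probes among the 29889 tested, and Npas2 did not. The labels put 3 arrays under db/m, called control, and 3 under db/db, called model, while the methods of the study describe both arrayed groups as db/db mice, which lack a working leptin receptor and are obese and diabetic on the C57BLKS/J background, 3 given HQD and 3 not, and do not say which label stands for which treatment. HQD is Huangqi decoction, a plant formula that was given by gavage for 8 weeks. Which dose the arrayed mice received is not given in the sources used here, and the groups are therefore called labelled db/m and labelled db/db. All mice were kept on a light-dark cycle and, by the methods, were killed in a morning following a night without food. The clock hour at which each kidney was taken and the order of the mice are not given in the sources used here, so the clock genes served as a check on whether the groups had been sampled at a like phase.

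In the molecular clock, the transcription factor BMAL1, encoded by Arntl, pairs with CLOCK or NPAS2 and switches on the Per and Cry genes, whose proteins then inhibit that pair. Nr1d1 encodes the repressor REV-ERBα, which is switched on by the same pair and holds Arntl down, and the factors encoded by Dbp and Tef pass the rhythm on to output genes. In peripheral tissues of the mouse, kidney included, Arntl and Npas2 transcripts are high around the end of the night, when Dbp, Tef and Nr1d1 transcripts are low, Nr1d1 and Dbp are high later in the day, and Cry1 lags the Per genes.

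The promoters of these genes carry short sequences through which the loop is closed, and 4 windows are shown, from members that were highest or lowest on replicate 1 of each group and whose windows held a match. RefSeq start sites on GRCm38.p6 gave windows of 300 bases (250 before and 50 after the start) for 9 of the 10 genes, 14 windows in all. Both strands were searched for the E-box CACGTG, the E-prime box CACGTT, the D-box TTATGTAA and the REV-ERB and ROR element TAGGTCA or TAGGTTA, and no match overlapped another. The spelling TAGGTTA was added after the Arntl window had been read. Capitals mark the matches, read on the strand of the gene.
Arntl, chr7:113207261-113207560, plus strand: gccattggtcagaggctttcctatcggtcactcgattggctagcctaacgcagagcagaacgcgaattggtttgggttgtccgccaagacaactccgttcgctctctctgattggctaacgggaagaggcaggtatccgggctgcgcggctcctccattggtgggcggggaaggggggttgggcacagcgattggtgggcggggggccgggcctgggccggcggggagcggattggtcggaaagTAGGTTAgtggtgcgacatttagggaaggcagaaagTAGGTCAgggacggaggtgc
Cry1, chr10:85185005-85185304, minus strand: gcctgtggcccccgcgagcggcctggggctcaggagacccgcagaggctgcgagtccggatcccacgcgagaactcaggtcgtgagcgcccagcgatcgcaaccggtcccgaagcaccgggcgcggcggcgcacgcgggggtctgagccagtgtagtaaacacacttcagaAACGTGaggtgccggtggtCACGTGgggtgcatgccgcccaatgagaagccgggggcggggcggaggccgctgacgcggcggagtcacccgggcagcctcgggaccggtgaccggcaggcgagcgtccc
Nr1d1, chr11:98775328-98775627, minus strand: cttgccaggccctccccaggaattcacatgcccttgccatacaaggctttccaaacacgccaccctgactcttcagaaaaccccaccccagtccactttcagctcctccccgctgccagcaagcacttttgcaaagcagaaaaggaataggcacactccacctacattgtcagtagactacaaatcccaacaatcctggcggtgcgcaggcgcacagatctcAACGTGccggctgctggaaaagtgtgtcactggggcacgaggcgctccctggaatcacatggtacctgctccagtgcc
Tef, chr15:81802423-81802722, plus strand: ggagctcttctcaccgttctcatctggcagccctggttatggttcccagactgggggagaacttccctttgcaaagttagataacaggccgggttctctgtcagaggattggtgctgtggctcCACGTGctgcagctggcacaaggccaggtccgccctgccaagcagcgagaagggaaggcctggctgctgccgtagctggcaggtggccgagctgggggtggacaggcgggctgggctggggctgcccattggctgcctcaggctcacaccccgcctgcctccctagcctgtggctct

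The Arntl window held the REV-ERB and ROR element at 2 places, starting 6 bases before and 31 bases after the start site. Of the other member windows only the second Arntl window held it. That window overlaps the one shown, and its match is the same TAGGTTA site, in the spelling that was added later. An E-box began 60 bases before the start of Cry1, with an E-prime box 79 bases before it. Nr1d1 had an E-prime box 28 bases before its start, and Tef had an E-box 127 bases before. Of the members, 3 genes (Per1, Cry1 and Tef) had an E-box and 1 gene (Per3) had the D-box. Among 32851 windows of all genes, 7.15% held the E-box, 4.68% the E-prime box, 0.938% the D-box and 4% the REV-ERB and ROR element. No match was found in the windows of Clock, Npas2 and Dbp. A match is a run of letters and not a measured binding site.

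Signals are given as log2 of the intensity minus the log2 of the 75th percentile of the same array, so that 0 is the level of the 75th percentile. Values follow the order of replicates 1, 2 and 3, and every difference has labelled db/db subtracted from labelled db/m. The labels do not say whether a replicate number links mice of the 2 groups, and the numbers are used here as names only. Levels of different genes were not set against each other, since probes differ in how strongly they bind. In bulk cortex, fewer cells of a type and less RNA per cell cannot be told apart.

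None of the 9 tested members differed between the groups beyond the spread of the arrays. Of these 9 genes, each read by its brightest tested probe, 0 had an unadjusted p under 0.05 in limma, against 15.6% of all 16833 genes, and 0 had groups that did not overlap, against 22.8% of all genes. Over their 19 tested probes the counts were also 0, against 17.7% and 24.1% of all tested probes. The difference was above 0 for 3 genes and below 0 for 6, with a median of -0.04, beside a median of -0.03 over all genes. After Benjamini-Hochberg adjustment limma called 0 of the 29889 tested probes at 0.05, although 5282 had an unadjusted p under 0.05, and a per-probe equal-variance test, the form nearest to the statistics named in the methods, also called 0, with 4617 under 0.05 before adjustment.

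**Figure D1:**
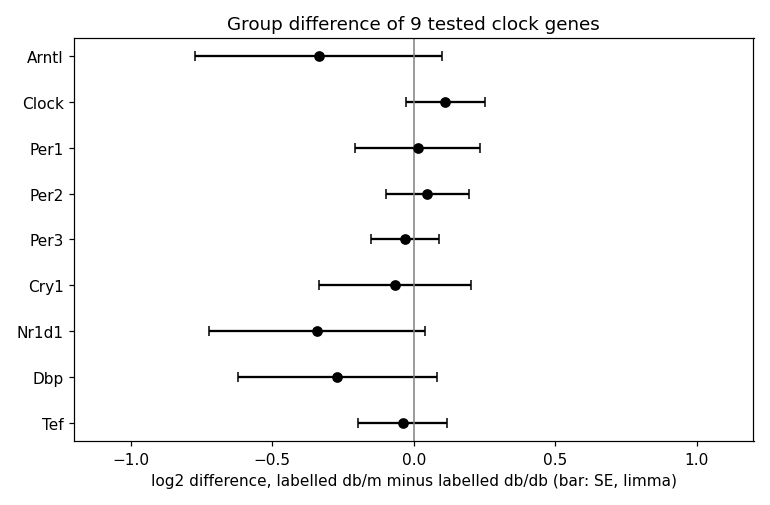
Group difference of the 9 tested clock genes, in log2 units, labelled db/m minus labelled db/db, with the standard error from limma as bars (3 arrays per group). Differences ran from -0.34 for Nr1d1 to 0.11 for Clock.

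Arntl, the activator whose loss stops the clock, set replicate 1 of each group apart from the other arrays. Its signal was -1.44, -2.83 and -2.70 in the labelled db/m arrays, and -1.33, -2.40 and -2.22 in the labelled db/db arrays (probe A_52_P267651, chr7:120456978-120457037 on mm9). Replicate 1 of either group stood at least 0.78 log2 units above the other 4 arrays, and the groups overlapped. In intensity before scaling, these were 379, 108 and 148 against 359, 164 and 202. The group means were -2.32 ± 0.76 and -1.99 ± 0.58 (SD, n = 3 each), and limma gave a difference of -0.34 with a 95% interval from -1.37 to 0.70 (SE 0.44, adjusted p = 0.678). That interval spans ratios of labelled db/m to labelled db/db from 0.386 to 1.63. The highest array was 2.82-fold above the lowest, and 6.46% of all tested probes had a range over the 6 arrays at least as wide.

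Clock, the partner of Arntl, did not share that spread. Its brightest probe gave 0.97, 1.23 and 1.14 in the labelled db/m arrays, and 0.95, 1.21 and 0.85 in the labelled db/db arrays. The difference was 0.11 with a 95% interval from -0.22 to 0.44, and it was -0.08 when arrays were centred on their median. Both other tested probes of Clock differed by 0.03 and 0.14. All 3 tested Clock probes had a range that at least 75.3% of tested probes matched or exceeded.

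Npas2, which can take the place of Clock, was well above background on 1 array only and was not tested. Its probe (A_52_P534749) read -3.56, -5.77 and -6.33 in the labelled db/m arrays, and -3.78, -5.90 and -6.31 in the labelled db/db arrays. Replicate 1 of both groups again held the highest values, of which only that of labelled db/m replicate 1 was well above background.

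**Figure D2:**
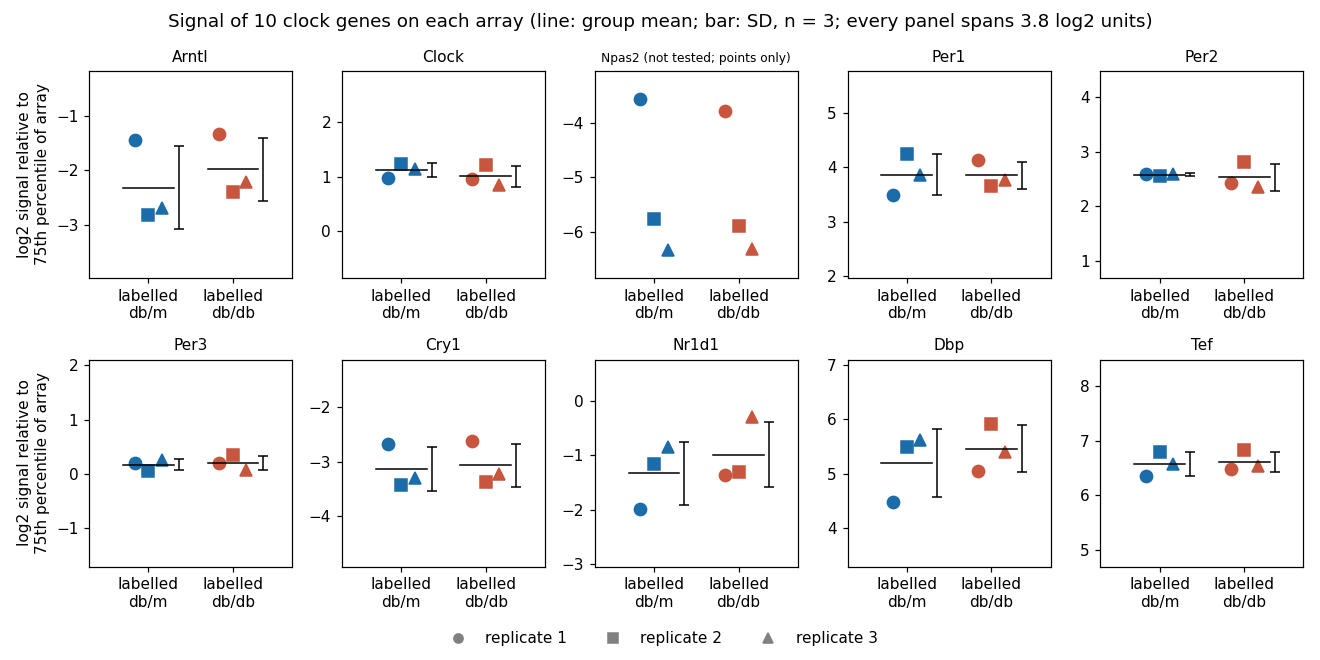
Signal of the 10 clock genes on each array, as log2 relative to the 75th percentile of the array, with the group mean as a line and the SD of 3 arrays as a bar for the 9 tested genes. Arntl and Cry1 were highest and Dbp and Tef lowest on replicate 1 (circles) of each group, and the 2 groups overlapped in every panel.

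The Per genes, which encode inhibitors of the BMAL1 pair, had ranges of 0.75 (Per1), 0.46 (Per2) and 0.28 (Per3) on their brightest probes. Per1, which also answers to glucocorticoids, read 3.49, 4.24 and 3.85 in the labelled db/m arrays, and 4.14, 3.66 and 3.76 in the labelled db/db arrays. Its extremes were both labelled db/m arrays, and replicate 1 was low in one group and high in the other. The difference was 0.01 (95% interval -0.52 to 0.54, limma adjusted p = 0.977), and it turned to -0.17 under median centring. Per2 read 2.60, 2.55 and 2.59 against 2.42, 2.82 and 2.35, a difference of 0.05 (95% interval -0.30 to 0.40) that was -0.14 under median centring. The arrays labelled db/m lay within 0.06 log2 units of each other, inside the span of the arrays labelled db/db. Per3 read 0.20, 0.06 and 0.26 against 0.20, 0.34 and 0.08, a difference of -0.03 (95% interval -0.32 to 0.25). Its range of 0.28 over the 6 arrays was matched or exceeded by 89.3% of tested probes.

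Further probes of Per2 and Per3 gave larger differences than the brightest ones. A dimmer Per2 probe (A_52_P536869, chr1:93336538-93336597 on mm9) read -2.76, -2.41 and -2.46 in the labelled db/m arrays, and -3.25, -2.90 and -2.71 in the labelled db/db arrays. It was higher by 0.41 in labelled db/m (SE 0.17, adjusted p = 0.286 in limma), the smallest p of the 19 member probes, and the groups overlapped by a single pair of arrays. A Per3 probe (A_66_P135046) differed by 0.51 (SE 0.41, limma adjusted p = 0.502), with labelled db/m replicate 3 at -1.48 and the other 5 arrays between -3.18 and -2.70. The third Per3 probe differed by -0.02.

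Cry1, the inhibitor whose transcript lags the Per genes, followed Arntl over the arrays. Its signal was -2.68, -3.43 and -3.30 in the labelled db/m arrays, and -2.62, -3.37 and -3.22 in the labelled db/db arrays. Replicate 1 was the highest array of each group, and the 2 triplets of values were nearly the same. The difference was -0.07 (95% interval -0.70 to 0.57, limma adjusted p = 0.903). A second Cry1 probe (A_55_P2880103) read -3.18, -3.77 and -3.29 against -2.98, -3.54 and -3.49, with the same difference of -0.07 and with the highest value of each group again on replicate 1.

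Nr1d1, the repressor of Arntl, had the widest range of the 9 tested genes. It read -1.98, -1.16 and -0.85 in the labelled db/m arrays, and -1.36, -1.30 and -0.30 in the labelled db/db arrays. The lowest array of each group was replicate 1 and the highest replicate 3, although labelled db/db replicates 1 and 2 were 0.06 apart. The group means were -1.33 ± 0.58 and -0.99 ± 0.60 (SD, n = 3 each), and the difference was -0.34 (95% interval -1.25 to 0.57, limma adjusted p = 0.628). With the slide as a block, which compares labelled db/m replicate 1 with labelled db/db replicate 3, it was -1.68, with an unadjusted p under 0.05 (limma adjusted p = 0.291). Since that sets 1 array against 1 array, the spread behind the p came from the other slides, each with arrays of 1 group only. The lowest and the highest array were 3.20-fold apart, and 4.69% of tested probes had a range at least as wide.

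Dbp, the output factor with one of the strongest daily rhythms known, ran opposite to Arntl. It read 4.47, 5.48 and 5.61 in the labelled db/m arrays, and 5.05, 5.92 and 5.40 in the labelled db/db arrays. Replicate 1 was the lowest array in each group, and the groups overlapped. The means were 5.19 ± 0.63 and 5.46 ± 0.43 (SD, n = 3 each), with a difference of -0.27 (95% interval -1.11 to 0.57, limma adjusted p = 0.679), and without labelled db/m replicate 1 the difference was 0.09. A second Dbp probe (A_51_P180492) read 4.20, 5.49 and 5.46 against 4.85, 5.80 and 5.33. It repeated the order of replicate 1 below the others, with a difference of -0.28. The range of 1.45 on the first probe was matched or exceeded by 7.16% of tested probes.

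Tef, a close relative of Dbp, moved less. It read 6.36, 6.80 and 6.57 in the labelled db/m arrays, and 6.49, 6.82 and 6.53 in the labelled db/db arrays. Replicate 1 was lowest in each group, by 0.21 and 0.04 log2 units. The difference was -0.04 (95% interval -0.42 to 0.34, limma adjusted p = 0.901), and it was 0.18 after quantile normalization. The other 3 Tef probes differed by -0.22, -0.21 and -0.10, with a smallest adjusted p of 0.356 in limma. In only 1 of them (A_52_P173309) was replicate 1 lowest in both groups. Probe A_55_P2912692 was highest on labelled db/db replicate 1 (0.49, -0.01 and 0.13), and A_52_P485573 was lowest on labelled db/db replicate 3 (4.20, 4.36 and 4.14).

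**Figure D3:**
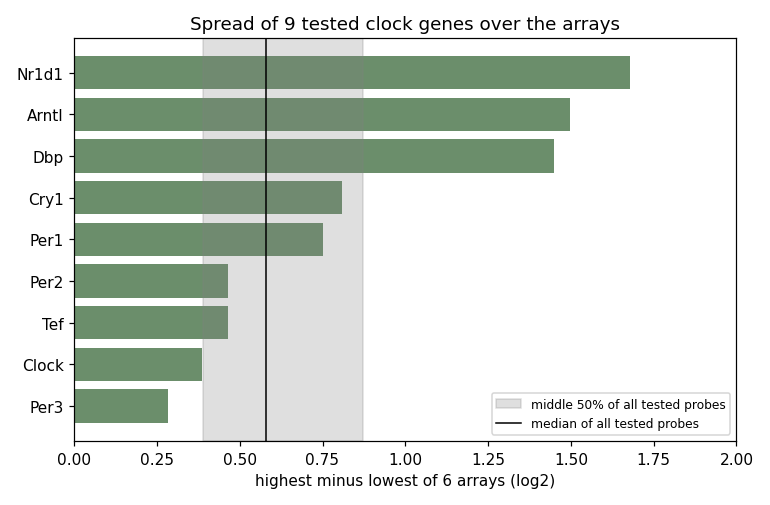
Highest minus lowest of the 6 arrays for each tested clock gene, in log2 units, with the median (0.58) and the middle 50% of all 29889 tested probes. Nr1d1, Arntl and Dbp lay above that band, Clock and Per3 below it, and Cry1, Per1, Per2 and Tef inside it.

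The activators and their targets oscillate in opposite phase, and their difference within an array does not depend on how the array is scaled by a constant. Each gene was centred on its mean over the 6 arrays, and the mean of Per1, Per2, Per3, Nr1d1, Dbp and Tef was subtracted from that of Arntl and Clock. Cry1, whose peak lies between these sets, entered neither, and it ran with Arntl over the arrays. The result was 0.68, -0.35 and -0.34 in the labelled db/m arrays, and 0.43, -0.20 and -0.22 in the labelled db/db arrays. The group means differed by -0.01, beside an SD within groups of 0.49. Replicate 1 of each group lay above 0 and the other 4 arrays below it. Arntl minus Dbp alone gave 1.56, -0.83 and -0.83 against 1.09, -0.85 and -0.15. No test was made of these arrays against the others, since they were picked out by their values.

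**Figure D4:**
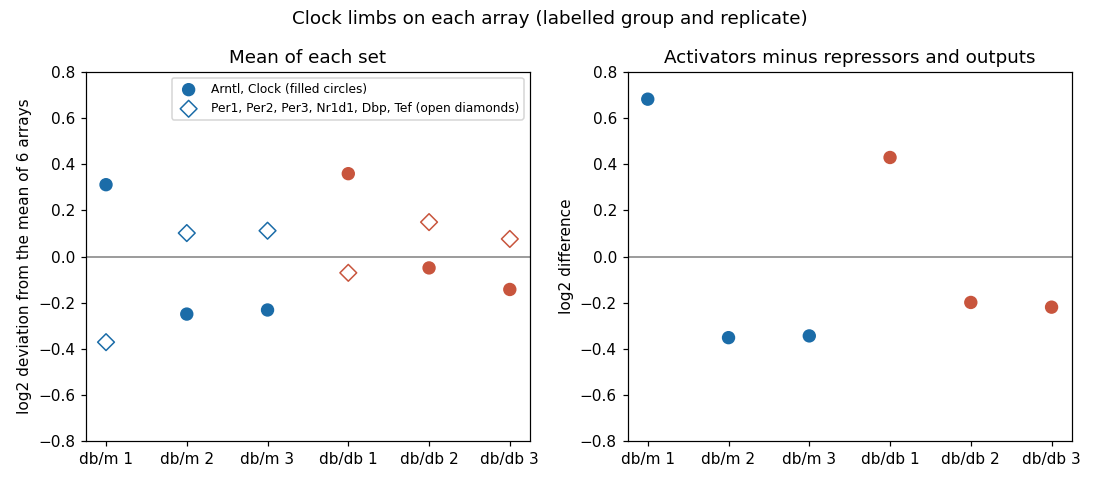
Left, mean of the centred log2 signal of the activators Arntl and Clock (filled circles) and of the repressors and outputs (open diamonds) on each array. Clock was not raised on replicate 1 of either group. Right, the difference of the 2 means, which was 0.68 and 0.43 on replicate 1 of labelled db/m and labelled db/db and between -0.35 and -0.20 on the other 4 arrays.

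The arrays at the upper end of this difference did not share a slide. By the slide recorded in the scanner files, labelled db/m replicate 1 lay on slide 1 with labelled db/db replicate 3, labelled db/m replicates 2 and 3 lay on slide 2, and labelled db/db replicates 1 and 2 lay on slide 3. Within slide 1, the only slide with both groups, Arntl was 0.78 higher in the array labelled db/m and Nr1d1 1.68 lower. Within slide 3, Arntl was higher and Dbp lower on labelled db/db replicate 1 than on replicate 2. Without replicate 1 of both groups, an alternative chosen after the values had been seen, 1 of 9 members had an unadjusted p under 0.05 in limma (Arntl, -0.45, adjusted p = 0.598), against 8.09% of all probes tested there, and 2 members had groups that did not overlap, against 44.9%. The arrays left out were the 2 highest for Arntl, which narrows its spread by construction, so nothing is drawn from that p. Over all probes, labelled db/m replicate 2 correlated most with labelled db/db replicate 3 (Pearson r across probes 0.9917), an array of the other group.

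Of 18 further clock genes, 16 were tested (Rorb and Bhlhe41 were not), and 1 had an unadjusted p under 0.05, against 15.6% of all genes. This was Fbxl21, which encodes an F-box protein that acts on cryptochromes. It read -3.48, -3.18 and -3.26 in the labelled db/m arrays, and -2.80, -2.63 and -2.87 in the labelled db/db arrays. All 3 arrays labelled db/m lay below those labelled db/db, with a difference of -0.54 (SE 0.13, limma adjusted p = 0.240). By the brightest probes, Csnk1d, a kinase of the PER proteins, was the only other gene of these 16 whose groups did not overlap. It differed by -0.12, and 2 of 16 compares with 22.8% of all genes. Dimmer tested probes without overlap were lower for Csnk1d (-0.38 and -0.49), Rora (-0.42) and Fbxl21 (-1.02, well above background on 1 array labelled db/m). Others were higher, for Cry2 (0.40), Csnk1e (0.36) and Fbxw11 (0.38 and 0.54). Of all tested probes, 24.1% did not overlap. The 16 genes had a median difference of -0.04.

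Among the next genes by p, none of which passed 0.05, Btrc, a ubiquitin ligase subunit for PER proteins, differed by 0.29 and Timeless by 0.26. A second tested Btrc probe went the other way, at -0.52, with groups that did not overlap. Timeless ran from 0.078 to 0.40 when arrays were left out.

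Some of the further clock genes, picked out after their values had been seen, shared with Arntl or Dbp the place of replicate 1 within each group, though not always the order of replicates 2 and 3. Nfil3, a repressor that opposes Dbp at D-boxes, read 1.17, 0.04 and 0.41 against 0.73, 0.26 and -0.04. It was highest on replicate 1 of each group, as Arntl was. Ciart, a repressor of the BMAL1 pair, read -3.76, -1.08 and -1.63 against -3.17, -2.46 and -2.21. It was lowest on replicate 1 of each group, as Dbp was, and its range of 2.68 exceeded that of each of the 9 tested members. Hlf, a further relative of Dbp, read 1.98, 2.62 and 2.50 against 2.31, 2.84 and 2.18, and it was lowest on replicate 1 in labelled db/m but not in labelled db/db.

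Over the 6 arrays, the genes most like Arntl outside the members were Lamc3 (Pearson r 0.988), Bex1 (0.987), 2010109A12Rik (0.987), Ube2l6 (0.987) and 1810059H22Rik (0.985), and 149 of 16824 genes had an r of at least 0.9. Among those most like Dbp were Vps8 (0.984), Pdlim4 (0.980), Lgals8 (0.980) and Clic5 (0.978), and 145 genes had an r of at least 0.9. These values describe arrays that all genes share. The genes named as like Arntl were highest, and those named as like Dbp lowest, on the 2 replicate 1 arrays, and Lamc3 spanned only 0.17 log2 units. Under median centring the r of Lamc3 with Arntl was 0.684.

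Genes that follow the clock were read from a list of 20, of which 19 were tested (Snai3 was not). An unadjusted p under 0.05 was found for 5 genes, 2 higher and 3 lower in labelled db/m, against 6.25% of all genes called higher and 9.39% called lower. The lower ones were Cirbp, a cold-inducible RNA-binding protein (-0.45, SE 0.14), Gne, of sialic acid synthesis (-0.38, SE 0.13), and Por, the electron donor of cytochrome P450 enzymes (-0.38, SE 0.14). In each of these 3 the groups did not overlap, as also in Wee1, a cell cycle kinase (-0.31), making 4 of 19 beside 22.8% of all genes. Dimmer probes did not always follow, since a second tested Gne probe differed by 0.13, and further tested Cirbp probes by -0.80 and 0.19. Of 21 alternatives, Por lost its unadjusted call in 9, Cirbp in 7 and Gne in 7. Por differed by -0.17 both after quantile normalization and in the deposited matrix. The 19 genes had a median difference of -0.13, and the smallest adjusted p in limma was 0.240.

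Higher in labelled db/m were Leo1, of the RNA polymerase elongation complex (0.48, SE 0.20, overlapping groups), and Aqp4, a water channel of the collecting duct (1.48, SE 0.49). Leo1 lost its unadjusted call in 15 of 21 alternatives and Aqp4 in 6. Aqp4 read 2.76, 0.78 and 2.28 in the labelled db/m arrays, and 0.34, 0.24 and 0.80 in the labelled db/db arrays, so that labelled db/m replicate 2 lay within the range of the other group. Across the 8 fits that left out 1 or 2 arrays the difference ran from 1.01 to 2.23, and 5 of them no longer had an unadjusted p under 0.05. Without labelled db/m replicate 2 it was 2.06 (limma adjusted p = 0.0379), in a fit where 222 of 31429 tested probes had an adjusted p under 0.05. The array left out was the one within the range of the other group. That narrows the spread by construction, so nothing is drawn from that p. A second tested Aqp4 probe (A_52_P625527) differed by 1.33, with groups that did not overlap. A dimmer tested probe (A_55_P2742038) differed by 0.71 and was highest on labelled db/m replicate 2. The summed linear signal of the collecting duct markers Aqp2 and Atp6v1g3 ran from 11.0 to 24.6 in labelled db/m and from 11.1 to 13.1 in labelled db/db, in multiples of the 75th percentile. That of Slc14a2 and Upk1b, markers of inner medulla and urothelium, ran from 0.0525 to 15.8 and from 0.0478 to 3.57. All markers of the first pair and neither of the second were well above background on all 6 arrays. Their part in the Aqp4 difference was not tested.

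Glucocorticoids follow the time of day and handling, and 12 genes that respond to them were read beside Per1, which belongs to that list too. All 12 were tested, with 1 higher and 1 lower at an unadjusted p under 0.05, beside 15.6% of all genes called in either direction. Pdk4, a brake on glucose oxidation, differed by 0.71 (SE 0.29, limma adjusted p = 0.277). Sgk1, a kinase that raises sodium uptake, differed by -0.48 (SE 0.19, limma adjusted p = 0.271). Of 21 alternatives, Pdk4 lost its unadjusted call in 7 and Sgk1 in 11. When arrays were left out, Pdk4 ran from 0.47 to 0.93 and Sgk1 from -0.72 to -0.23. After quantile normalization Sgk1 was -0.31. Sgk1 was the only one of the 12 whose groups did not overlap, beside 22.8% of all genes. Zbtb16 differed by -0.50, Klf9 by -0.30 and Cdkn1a by 0.41, and the median of the 12 genes was 0.01. Without labelled db/m replicate 1, Zbtb16 differed by -0.21 and Klf9 by -0.15, and without labelled db/m replicate 2, Klf9 differed by -0.49 (limma adjusted p = 0.127). Fkbp5, a classic glucocorticoid target named here after its values were seen, read 3.25, 4.26 and 3.79 against 4.26, 4.16 and 3.84. Like Per1, it was lowest on replicate 1 of labelled db/m and second highest on replicate 1 of labelled db/db.

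The markers of cortex were present in all samples, and the inner medulla and urothelium markers given beside Aqp4 varied widely between arrays. All 14 markers of proximal tubule, thick limb, distal convoluted tubule, collecting duct, podocyte and endothelium were well above background on the 6 arrays, and so were both haemoglobin genes. Adipoq of fat and Cyp11b1 of the adrenal were well above background on none, while Star, a second adrenal marker, was on all 6. The immune cell markers Ptprc, Cd68 and Cd3e were well above background on all 6 arrays. Ptprc ran from 6.95 to 7.43 times the 75th percentile in labelled db/m and from 4.36 to 6.25 times in labelled db/db. The groups did not overlap in Ptprc but did in Cd68 (0.458 to 0.568 against 0.410 to 0.476) and in Cd3e (1.15 to 1.55 against 1.02 to 1.68). The part of these markers in any difference above was not tested. Between 51.6% and 59.0% of probes were well above background on an array, and the median intensity ran from 76.0 to 112. Lepr, the gene mutated in db mice, read 1.38, 1.60 and 1.18 in the labelled db/m arrays, and 0.60, 0.64 and 1.65 in the labelled db/db arrays, of which replicate 3 was the highest of all 6. The difference was 0.42 (SE 0.29, limma adjusted p = 0.447). The db change alters splicing, and which splice forms this probe reads was not established here, so it checks no label. The other Lepr probes were too dim to be tested. The p-values measure the spread between these 6 mice only.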

How the data were processed

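Total RNA of renal cortex was labelled with Cy3 and hybridised to Agilent one-colour arrays, 1 per mouse, 3 per group. The authors deposited scanner output with spot intensity, already background-subtracted by Agilent Feature Extraction 10.7.1.1, the version in the submitters' processing notes. They also deposited a matrix of log2 values, whose normalization is not stated and which shared nearly the same sorted values across arrays; scale was checked against the scanner values (Pearson r 0.998 to 0.99996), with a median of 6.10 on every array, and its exact centring is unknown. Groups followed the labels.

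Control and outlier spots were dropped, repeated spots averaged, and log2 intensity scaled by subtracting the array's 75th percentile. The 29889 probes that a complete group of 3 arrays showed well above background entered lmFit and eBayes (limma 3.58.1, R 4.3.3), with Benjamini-Hochberg adjustment over all of them. No probe was saturated. Genes were read by their brightest tested probe. Gene names came from the array design, with 32903 of 56605 probes matched by accession to RefSeq. Probe coordinates are those of the files, on mm9; the exon or untranslated region of a probe was not analysed here. Precision is limited by the number of arrays, and 3 against 3 arrays allow an exact permutation p of no less than 0.1.

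The procedure was tested on simulated data with independent normal noise and no slide or replicate structure. There 200 of 29889 probes were changed by 1 log2 unit. Of the changed probes, limma gave 92.5% an unadjusted p under 0.05 and 37.5% an adjusted p under 0.05. Of the unchanged probes, 5.06% had an unadjusted p under 0.05. The members, the lists of clock, output, glucocorticoid and marker genes and the tests were chosen with earlier results of these data known. Named were every member, list genes with an unadjusted p under 0.05 or the 5 smallest p, the 5 genes most like Arntl and Dbp, and Lepr, apart from some items that are not reported here. Tried as alternatives were median centring, quantile normalization, normexp background correction (offset 50), the deposited log2 matrix, other filters on dim probes, a floor for dim arrays, an equal-variance test per probe, eBayes with trend and robust variance, slide and replicate blocks, all probes of a gene averaged, and each array left out.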

Additional observations from a re-analysis of the deposited data

Results flagged for a closer look

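A second Per1 probe (A_55_P2019327, chr11:68919895-68919954 on mm9) lay outside the comparison because it was too dim. It was well above background on 1 array, labelled db/db replicate 3, at -0.72 log2 relative to the 75th percentile, and on no array labelled db/m, where it read -5.22, -3.97 and -4.63. The other arrays labelled db/db read -5.43 and -4.75. The main Per1 probe was not raised on labelled db/db replicate 3 (3.76). An Arntl probe (A_55_P2735445) behaved likewise on labelled db/m replicate 3, at 0.42 against -6.40 to -5.95 on the other 5 arrays. Among the 26581 probes not tested, 3447 were well above background on 1 array only.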

How the results depend on the processing

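Under 21 alternatives, 0 members had an adjusted p under 0.05. Of 189 member differences recomputed, 156 kept direction and side of the unadjusted threshold, 30 changed direction and 3 passed 0.05. Quantile normalization turned Tef to 0.18, and the deposited matrix to 0.19; each left 2 rhythmic output genes and 1 glucocorticoid gene under 0.05, beside 15.7% and 15.6% of all tested probes. Median centring, which moved the median of all probes to -0.21, gave a member median of -0.23, Clock -0.075, Per1 -0.17, Per2 -0.14 and 2 other clock genes, beside 22.3% of all probes. No filter and the equal-variance test each left 3 output and 0 glucocorticoid genes, beside 8.74% and 15.4%. The slide as a fixed block, which rests on labelled db/m replicate 1 against labelled db/db replicate 3, gave a member median of 0.12, 1 member under 0.05 (Nr1d1, -1.68, limma adjusted p = 0.291), a limb difference of 0.90, 5 other clock genes and 1 output gene (beside 9.71% of all tested probes), and turned Arntl to 0.78, Per1 to -0.26, Per3 to 0.12 and Cry1 to 0.54, with Timeless at 0.63. Averaging all probes of a gene turned Per3 to 0.15 and Btrc to -0.12 and gave 3 other clock genes, beside 16.4%, and Gne (-0.12) lost its call. The cause was not tested.

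The replicate block gave 1 member under 0.05 (Arntl, -0.34, limma adjusted p = 0.218) and 2 other clock genes, beside 21.9% of all tested probes. Deviations from group means correlated by 0.353, 0.148 and 0.0461 for numbers 1, 2 and 3. Arrays with unlike numbers were not compared in this way, so these values cannot decide whether a number links mice. The numbers were not taken to pair the samples, since the labels do not say that they do.

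Without single arrays, or without 1 array of each group (chosen after seeing the data), the member median ran from -0.08 to 0.04, the limb difference from -0.35 to 0.20, members under 0.05 from 0 to 1, members without overlap from 0 to 2, other clock genes from 1 to 5, output genes from 0 to 9 and glucocorticoid genes from 0 to 6. Over all tested probes the share under 0.05 ran from 7.74% to 30.6% there (14.4% without labelled db/m replicate 1, which gave the 5 clock genes), and the share without overlap from 27.4% to 64.9%. Differences ran from -0.78 to -0.01 for Arntl, -0.026 to 0.22 for Clock, -0.22 to 0.34 for Per1, -0.040 to 0.19 for Per2, -0.10 to 0.036 for Per3, -0.29 to 0.16 for Cry1, -0.58 to 0.00092 for Nr1d1, -0.48 to 0.089 for Dbp, -0.19 to 0.068 for Tef and -0.039 to 0.63 for Cdkn1a, -0.93 to -0.095 for Zbtb16, -0.51 to -0.15 for Klf9 and 0.078 to 0.40 for Timeless. The likeness of Lgals8 to Dbp was 0.894 after quantile normalization and 0.898 in the deposited matrix. The 9 output and 6 glucocorticoid genes came when replicate 2 of labelled db/m was left out together with replicate 3 of labelled db/db, where the share was 30.6%. Of 8 list genes called before adjustment, Fbxl21 alone was called under every alternative, and the other 7 (Aqp4, Cirbp, Gne, Leo1, Pdk4, Por and Sgk1) lost the call without some array and under from 6 (Aqp4) to 15 (Leo1) of the 21 alternatives. Dim probes near background, such as that of Npas2, limit what can be read.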
